A study of Oryza sativa with 36 samples.

Results

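Leaves and roots of well-watered rice plants at the tillering stage were compared on 6 of the 36 arrays of the series, the 3 arrays labelled as normal leaves at tillering and the 3 labelled as normal roots at that stage. The plants were of DK151, a drought tolerant inbred line descended from introgression lines of IR64, and every group of the series carries this genotype. They grew singly in PVC tubes of Turface, a baked clay substrate, in a glasshouse and were watered with diluted nutrient solution in alternation with distilled water, and the control tubes were not drained. Each array holds total RNA of 1 plant, so the spread between replicates includes that between plants. Neither the labels nor the methods say whether leaf and root replicates of the same number came from the same plant. The methods give a split-plot design in 3 blocks, but do not say whether a replicate number marks a block. The remaining arrays, of droughted plants and of panicle elongation and booting, enter only where they are named. In whole organs of this kind a lower level can mean fewer cells of a type or less RNA in each cell, and these cannot be told apart.

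A leaf of a rice seedling or tiller is built around the chloroplast, where light is captured by the photosystems and carbon dioxide is fixed by Rubisco and the Calvin cycle, and it sends sucrose to the rest of the plant. A root lacks this machinery, takes up water, nitrogen, phosphate, potassium, silicon and metals through transporters in its outer cell layers, and imports its sugar. Rice roots are also known for living at low oxygen, for barriers of lignin and suberin around their inner tissues, and for silicon uptake on a scale unusual among plants.

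Each value below is a normalized intensity of a probe set, the group of short probes that reports 1 transcript, given for replicates 1, 2 and 3 in that order. Differences are leaf minus root on the log2 scale with the standard error (SE) of the model, and n = 3 arrays for each tissue throughout. A probe set was called where limma gave a Benjamini-Hochberg adjusted p under 0.05 over all 57258 rice probe sets and the tissues differed by 5-fold or more. Intensities of different probe sets are not on 1 scale and are compared between tissues only.

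The arrays of a tissue resembled each other closely. The correlation across all probe sets was 0.977 to 0.982 among the leaf arrays, 0.979 to 0.988 among the root arrays and 0.774 to 0.803 between leaf and root. Array medians lay between 59.0 and 62.9, and the median difference over all probe sets was 0.04. In total, 2606 probe sets were higher in leaf, which is 4.55% of those tested, and 2174 were higher in root, which is 3.80%. Together they made up 8.35% of the probe sets. The 3 leaf arrays and the 3 root arrays did not overlap for 33614 probe sets (58.7%). A difference of 100-fold or more was seen for 86 probe sets toward leaf (0.150%) and 64 toward root (0.112%). Of the called probe sets 10 and 8 overlapped between the tissues. The probe sets higher in leaf held 24.2% to 25.3% of the summed intensity of the leaf arrays and 1.56% to 1.73% of that of the root arrays, whereas those higher in root held 11.6% to 12.4% of the root arrays and 0.771% to 0.991% of the leaf arrays. Among the 100 brightest probe sets of each tissue, 77 of the leaf set were called higher in leaf and 18 of the root set were called higher in root. In the tissue where they were low, 25.9% of the probe sets higher in leaf and 40.1% of those higher in root had a mean under 28.3, the 25th percentile of intensity, so that these folds are ratios to a level near the lower end of the scale. The file holds no detection calls.

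**Figure D1:**
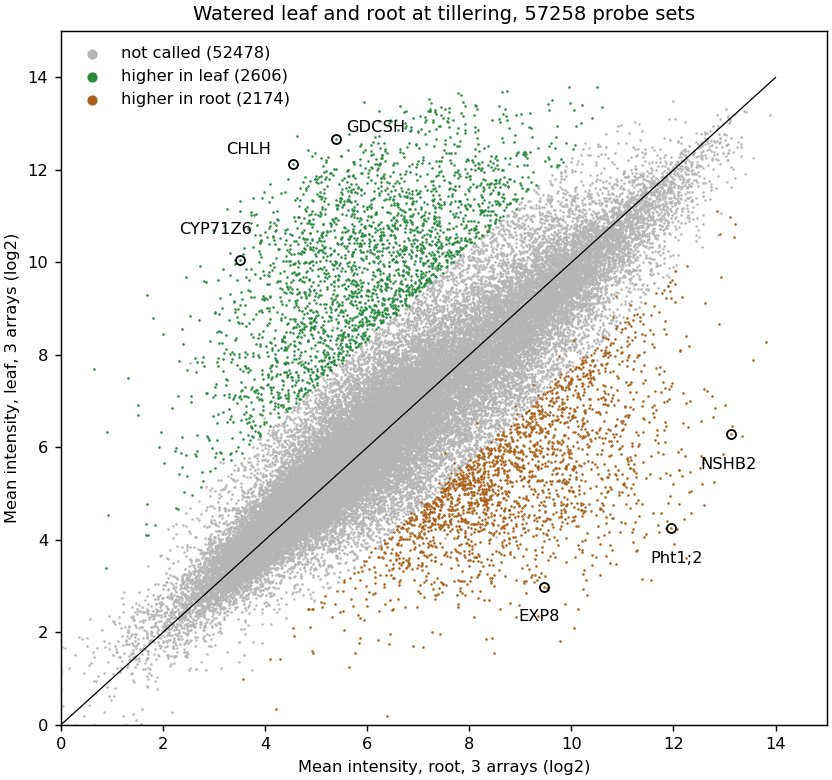
Mean log2 intensity of the 3 leaf arrays (vertical axis) against that of the 3 root arrays (horizontal axis) for 57258 rice probe sets, with 2606 called higher in leaf in green, 2174 called higher in root in brown and the rest in grey. The line marks equal levels, and the circled genes are described in the text.

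The probe set furthest toward leaf that could be named belonged to CHLH, a subunit of the magnesium chelatase that starts chlorophyll synthesis. It read 5015, 4678 and 3826 in leaf and 25.4, 17.8 and 26.5 in root, so that every leaf array was far above every root array (7.61 ± 0.32 (log2, SE), 196-fold, adjusted p = 5.51e-18). GDCSH, the H protein of the glycine decarboxylase of photorespiration, read 6949, 6468 and 6049 in leaf and 41.4, 47.9 and 36.5 in root. It was also separated without overlap (155-fold, adjusted p = 1.69e-16). PORA, which reduces protochlorophyllide in the light, read 4523, 3282 and 2905 against 31.6, 34.1 and 31.4 and was 108-fold higher in leaf. PDX12, related to the enzymes of vitamin B6 synthesis, was 158-fold higher, with leaf arrays at 2663, 2683 and 2799 and root arrays at 17.5, 13.3 and 21.7. The photosystem I subunit PSI-G (Os09g0481200) was 118-fold and ADI1, a ferredoxin that carries electrons away from photosystem I, 133-fold higher in leaf. A bHLH transcription factor without a symbol read 2616, 3127 and 3035 in leaf and 17, 12.2 and 17.9 in root, a 188-fold difference, and a factor of the CONSTANS-like zinc finger family read 3052, 3066 and 3204 against 26.2, 25.3 and 32.2, a 112-fold difference. Both factors were thus at a high level on all leaf arrays and near the lower end of the scale on all root arrays. The remaining genes of the 12 furthest toward leaf were FBPase, described with the Calvin cycle, a conserved hypothetical protein (Os05g0291700, 156-fold), a strictosidine synthase family protein (Os09g0373200, 112-fold) and a haloacid dehalogenase-like hydrolase (Os08g0485900, 107-fold).

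Among the named genes the highest folds were toward root. Os07g0604600, a B12D family protein, read 9.16, 11 and 16.6 in leaf and 5117, 5018 and 4527 in root. The root arrays lay close together and the leaf arrays near the lower end of the scale, a 411-fold difference (adjusted p = 4.03e-20). RCc3 (Os10g0552800), known as a root-specific protein, read 10.7, 15.4 and 18.8 in leaf against 4274, 4294 and 3796 in root and was 282-fold higher in root. A pair of enzymes around phosphoenolpyruvate stood in the same group. Pyruvate, phosphate dikinase, which makes phosphoenolpyruvate from pyruvate and has the symbol CPDK2 in the reference table, read 21.6, 27.2 and 31.7 in leaf and 5581, 6992 and 6146 in root (234-fold), and phosphoenolpyruvate carboxykinase (Os10g0204400), which makes it from oxaloacetate, read 9.13, 13.5 and 27.6 and 2246, 2574 and 3427 (179.8-fold). Neither enzyme read above 31.7 on a leaf array. GER4, a germin-like protein, was 202-fold higher in root, and its difference of -7.66 became -8.29 without leaf array 3. The chitinase Cht1 read 11, 9.4 and 33.3 in leaf and 4071, 809 and 5261 in root. Root array 2 was the lowest of the root arrays, and the difference of -7.42 became -8.26 without it. A glycine-rich cell wall protein (Os06g0199000, 181-fold), the ethylene response factor annotated as ERF3 (cap2, 155-fold), a family 31 glycoside hydrolase (Os07g0421300, 147-fold) and a cysteine protease annotated as Ervatamin B (Os01g0347600, 137-fold) were also higher in root without overlap. The phosphate transporter Pht1;2 and the vacuolar water channel TIP2 complete the 12 and are described with their families.

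Genes were then read in 43 lists of pathway, transport, hormone and regulator genes, with the brightest probe set of each gene. The lists were matched by symbol and cover part of each pathway, since 2452 of the 17905 genes that could be identified have one. Over all 17905 genes, 7.65% were called higher in leaf and 7.61% higher in root, the median difference was -0.20, and the tissues did not overlap for 71.3%. With a 2-fold minimum instead, 2646 of the 17905 were higher in leaf and 3788 higher in root. Differences of any size lay on the root side for 10759. These values stand beside each list. Where a member is named that is neither the furthest called member of its list in a direction nor among the largest differences, it was chosen after its values were seen.

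**Figure D2:**
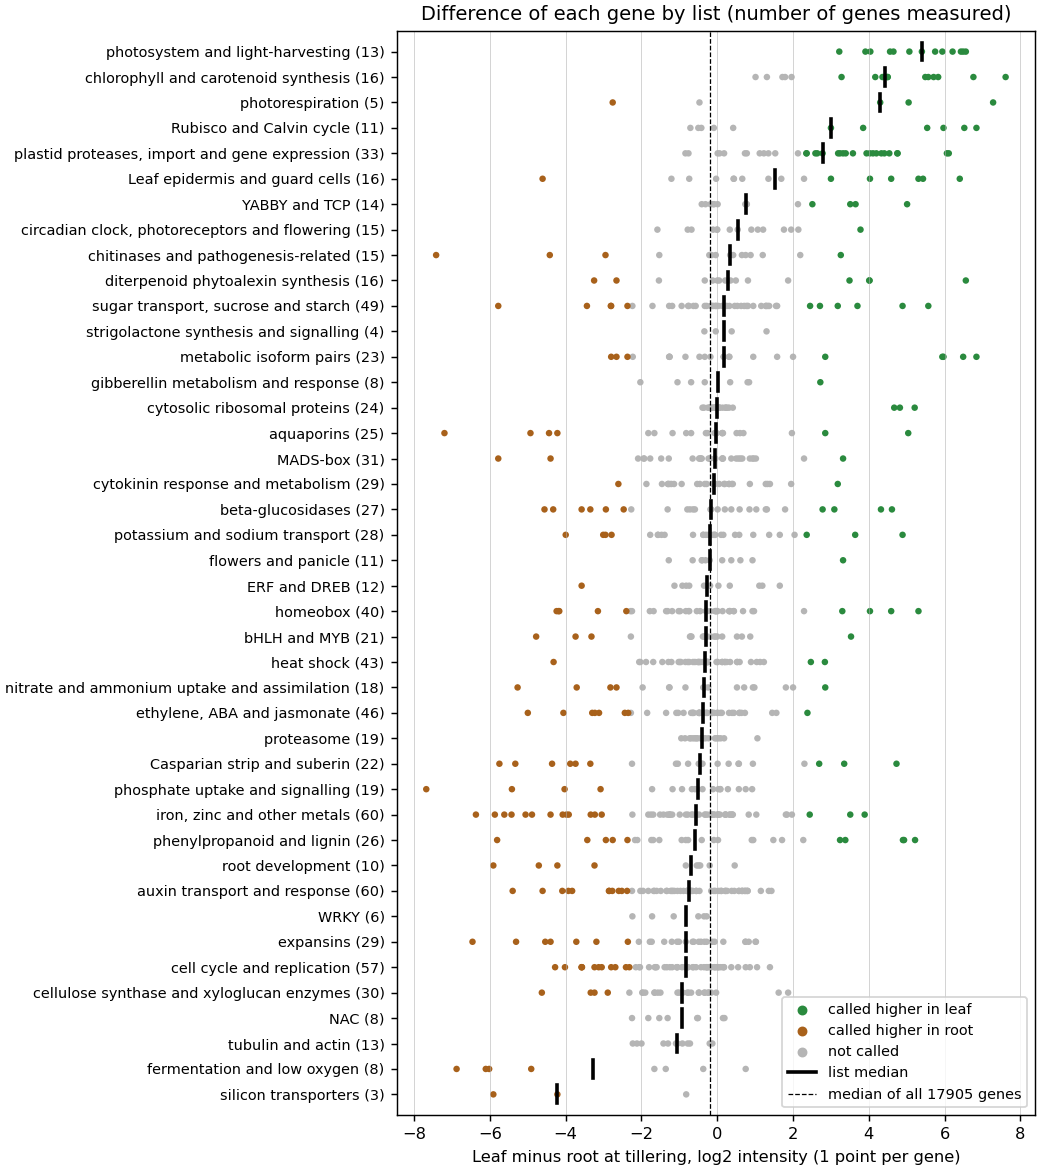
Leaf minus root difference at tillering (log2 intensity, horizontal axis) of each gene in the lists of 3 genes or more, 1 point per gene, with the number of genes measured in brackets. Green and brown points are called higher in leaf and in root, grey points are not called, bars are list medians and the dashed line is the median of all 17905 genes, -0.20.

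The photosynthetic lists lay almost wholly on the leaf side. All 13 measured genes of the photosystems, electron transport and light harvesting were called higher in leaf, with a median of 5.40 and a range from 3.22 to 6.56. PSAH, a subunit of photosystem I, read 10207, 10063 and 9227 in leaf and 84.5, 127 and 105 in root (6.56 ± 0.45 (log2, SE), 94.5-fold, adjusted p = 3.27e-13). The leaf arrays were all bright and the root arrays dim. The light-harvesting chlorophyll proteins RCABP89 and CAB2R were 74-fold and 15-fold higher. Light-harvesting genes form a family of similar sequence, so their probe sets may take signal from one another. LIR1, a light-inducible protein of the chloroplast, was the member nearest to the root, at 11018, 11248 and 10099 against 1408, 871 and 1269, and plastocyanin (PETE), which carries electrons between the complexes, was 23.7-fold higher in leaf. In root the summed intensity of the 13 genes was 3463 to 3999, against 93159 to 104883 in leaf, and no member was at 0 on a root array.

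Of 16 genes of chlorophyll and carotenoid synthesis, 11 were called higher in leaf and none higher in root, and all 16 lay more than 2-fold toward leaf (median 4.42). The called genes included the chelatase subunits CHLH, CHLD (18-fold) and CHLI (22.5-fold), the reductases PORA and PORB (52.3-fold) and CAO (20.5-fold), which makes chlorophyll b. CHLG, which completes the chlorophyll molecule, read 1424, 1086 and 670.5 in leaf and 311, 226 and 249.6 in root and was not called. HEMB and HEMD, which act earlier and in the synthesis of all tetrapyrroles, heme included, were not called and read 2374, 1930 and 1856 against 612, 616 and 630.4 and 326, 267 and 321 against 172, 119 and 168. Phytoene synthase, the entry to carotenoids, has 3 genes in the list. PSY1 read 3694, 3917 and 3291 in leaf and 92.5, 73.5 and 64.8 in root and PSY2 1509, 1440 and 1607 and 82, 70.6 and 52.7, and both were called higher in leaf (47.6-fold and 22.6-fold). PSY3 read 485, 601 and 581 and 249, 210.5 and 214, a difference of 1.31 that did not reach the fold minimum. The GOLDEN2-like factors GLK1 and GLK2, which switch on chloroplast genes, were 45-fold and 56.8-fold higher in leaf, with leaf array 3 the lowest for GLK1 (2462, 2064 and 1032 in leaf, 38.3, 39 and 38.5 in root).

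In the Calvin cycle list, 6 of 11 genes were called higher in leaf and none higher in root (median 3.0). FBPase, a fructose-1,6-bisphosphatase, read 3837, 3686 and 3178 in leaf and 35.1, 26.1 and 33 in root (6.84 ± 0.28 (log2, SE), 114-fold, adjusted p = 2.05e-18), and ALDP, the plastid aldolase, was 91.7-fold higher in leaf. The Rubisco small subunit rbcS read 14117, 14178 and 14300 in leaf and 974, 1017 and 972 in root (14.4-fold, adjusted p = 2.59e-05). It was the brightest probe set of leaf arrays 2 and 3, and whether the upper end of the scale compresses its fold was not tested. Rubisco activase (rcaA1), which frees the active site, was 46.6-fold higher. Of the 5 members not called, the aldolases FBA1, FBA2 and FBA3 lay between -0.71 and -0.42 and triose phosphate isomerase (TPI) at -0.09. The list was matched by symbol and does not separate plastid from cytosolic forms. These aldolases have the further names cALD, AldC-alpha and AldC-1, used for cytosolic forms, so the members not called need not belong to the Calvin cycle. The 6 called include CFBP1, a further fructose-1,6-bisphosphatase. Its compartment is not given in the sources used here, so it need not belong to the cycle either. RBCS1, a further small subunit gene, read 15.3, 17 and 17 in leaf and 13.9, 10.2 and 13 in root.

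Photorespiration showed a split within 1 enzyme family. Of its 5 measured genes, 3 were called higher in leaf and 1 higher in root. The glycolate oxidases GLO1 and GLO5, which form glyoxylate and hydrogen peroxide in peroxisomes, were 19.7-fold and 33.1-fold higher in leaf. GLO3 of the same family read 245, 313 and 203 in leaf and 1773, 2079 and 1323 in root, with all root arrays above all leaf arrays, and was 6.79-fold higher in root (adjusted p = 4.54e-12). GLO4 read 1151, 1249 and 962 and 1604, 1437 and 1588 and was not called.

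Genes for plastid upkeep followed the photosynthetic lists at smaller differences. Of 33 genes of plastid proteases, protein import, redox control and gene expression, 21 were called higher in leaf and none higher in root (median 2.78). The thioredoxins Trxm5 and Trx03, which pass reducing power from the photosystems to enzymes, were 69.2-fold and 66.9-fold higher in leaf. Trxm5 read 5941, 5853 and 5068 in leaf and 85.3, 78.1 and 79.8 in root. The thylakoid proteases FTSH1 and FTSH2 were 17.3-fold and 10.5-fold and the sigma factor Sig2B, which directs the plastid RNA polymerase, was 16.3-fold higher in leaf.

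In the list made for leaf epidermis and guard cells, 6 of 16 genes were called higher in leaf and 1 higher in root (median 1.52). It held lipid transfer proteins, Roc factors and wsl genes, and no gene of guard cells was matched. The called genes toward leaf were the lipid transfer proteins LTP2-B (84.6-fold) and LTP (43.1-fold), wsl6 (7.98-fold) and 3 homeodomain factors of the epidermis. The genes wsl3, wsl6 and wsl8 entered by symbol alone, and wsl3 also stands in the plastid list. A role at the leaf surface is not given for them in the sources used here. Roc2 read 1340, 1584 and 1282 in leaf and 30.8, 43.6 and 32.6 in root (39.6-fold, adjusted p = 1.02e-17), and ROC1 and Roc6 were 24.1-fold and 16.3-fold higher. Of the other members of the Roc family, Roc5 read 808, 873 and 535 against 146, 138 and 162, just short of the fold minimum, and Roc3, Roc4, Roc7 and Roc8 lay between -0.74 and 0.44. A further lipid transfer protein, LTP110-A, went the other way with 31.4, 41 and 75.6 in leaf and 1066, 948 and 1405 in root (24.4-fold higher in root).

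A list made for isoforms, different genes for the same reaction in leaf and root, held 23 genes. Of these, 5 were called higher in leaf, 3 higher in root and 15 were not called. Glutamine synthetase was the only family in it with calls in both directions. LFNR1, the leaf ferredoxin-NADP reductase that ends photosynthetic electron transport, read 6172, 6031 and 5709 in leaf and 63.8, 59.8 and 77.5 in root (89.6-fold, adjusted p = 1.06e-18). A second reductase gene (LOC4334338) read 704, 657 and 739 in leaf and 3925, 2985 and 3003 in root, a difference of -2.23 that missed the fold minimum and passed it with quantile normalization (-2.39), and the other (LOC4342399) lay at 0.32. Glutamine synthetase, which fixes ammonium, was divided between the organs. The plastid form GLN2 read 8130, 7785 and 7772 in leaf and 1151, 1070 and 1069 in root and was 7.2-fold higher in leaf. The cytosolic GLN1-2 read 1220, 1274 and 2007 and 8007, 10118 and 9661 and was 6.31-fold higher in root, GLN1-1 lay at -0.84 and GLN1-3 at -0.33. Glutamate synthase, the partner enzyme, lay on opposite sides for its ferredoxin form (Fd-GOGAT, 2.0, adjusted p = 7.83e-14) and its NADH form (GLT2, -1.26, adjusted p = 0.186), neither of them called.

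Sucrose synthase, which splits sucrose in tissues that import it, was represented by 6 genes. SUS1 read 1190, 812 and 908 in leaf and 5198, 4632 and 5005 in root and was 5.16-fold higher in root, a call that was lost without leaf array 2 (-2.25). SUS3 read 35.1, 34.8 and 41.6 and 274, 286 and 218 and was 6.96-fold higher in root. Every root array exceeded every leaf array for both genes. Sus2 lay at -1.27, SUS4 at 1.58, SUS5 at 0.17 and SUS6 at 0.95, none of them called. A pair of fructose-1,6-bisphosphatase genes, FBPase and CFBP1 (62.7-fold), were called higher in leaf. Catalases catA (0.31) and CatB (-1.26), which remove hydrogen peroxide, the malic enzymes ME6 (-0.47) and NADP-ME2 (-0.18) and the glycolytic GAPC (0.17) were not called.

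**Figure D3:**
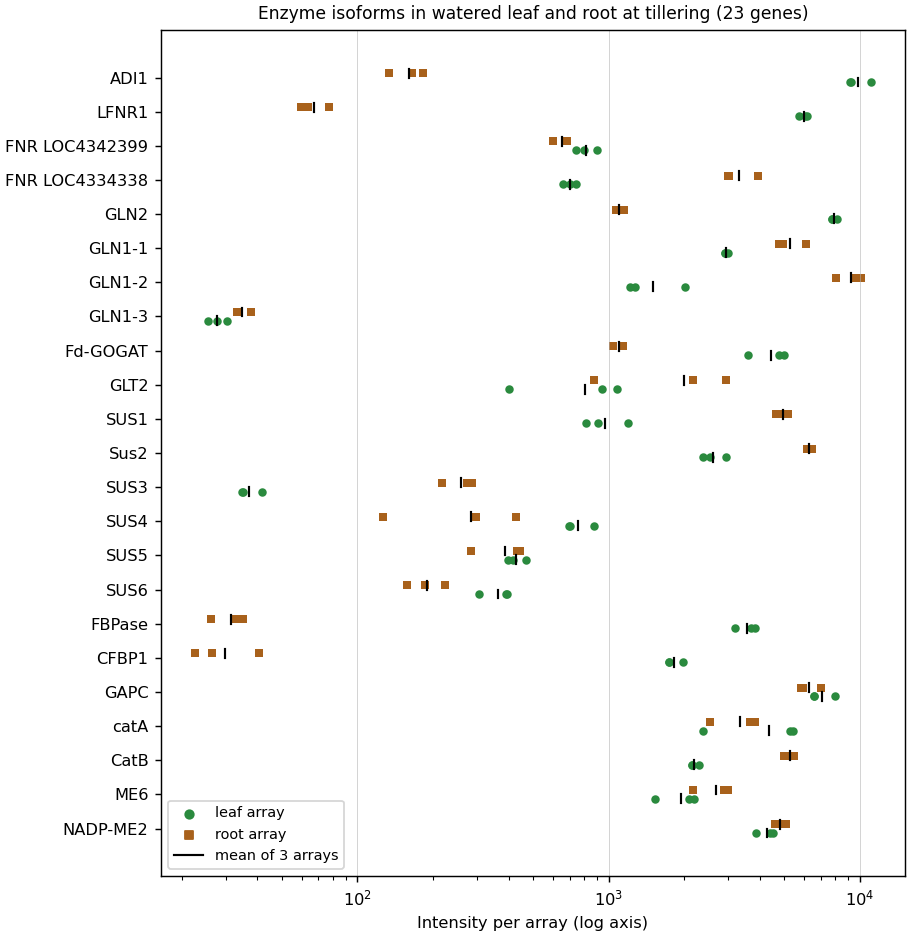
Intensity per array (log axis) of the 23 isoform genes, with leaf arrays as green circles, root arrays as brown squares and vertical bars for the mean of 3 arrays. ADI1, LFNR1, GLN2, FBPase and CFBP1 have every leaf array above every root array, and SUS1, SUS3 and GLN1-2 the reverse. ADI1 is drawn from its brightest probe set (61.3-fold).

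On the root side, transport of nutrients held the clearest members. Of the 3 silicon genes, Lsi1, the channel through which silicon enters the root, read 399, 475 and 352 in leaf and 8202, 7713 and 6903 in root (-4.22 ± 0.23 (log2, SE), 18.7-fold, adjusted p = 2.32e-15). Lsi2, the exporter that moves silicon on toward the xylem, read 26.5, 23.3 and 25.9 and 1811, 1507 and 1271 (-5.91 ± 0.28 (log2, SE), 60.1-fold, adjusted p = 5.69e-17). All root arrays of both genes were above all leaf arrays, and Lsi1 kept a clear level in leaf whereas Lsi2 was near the lower end of the scale. Lsi6, which unloads silicon from the xylem in shoots, read 1999, 2403 and 945 in leaf and 2965, 3154 and 2655 in root and was not called (-0.82, adjusted p = 0.0087).

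Phosphate genes numbered 19, with 4 called higher in root and none higher in leaf (median -0.52). The transporter Pht1;2 read 20.9, 17.9 and 18.6 in leaf and 4859, 3465 and 3552 in root (-7.68 ± 0.24 (log2, SE), 205-fold, adjusted p = 9.43e-21), and PHO1;2, which loads phosphate into the xylem, read 78.1, 87.2 and 64.4 and 3793, 2912 and 3148 (43-fold). The uptake transporter Pht1;6 was 8.47-fold higher in root. SPX5, of the family that senses phosphate status, read 10.6, 7.22 and 8 in leaf and 557, 61.4 and 77.5 in root. Root array 1 was far above the others, and the difference of -4.03 became -3.02 without it. By contrast, Pht1;1 read 1151, 1716 and 2062 in leaf and 2895, 3427 and 2814 in root and Pht1;8 406, 562 and 651 and 1473, 1140 and 1023, and neither was called. The regulators PHR1, PHR2 and PHR3 lay between -0.67 and 0.08.

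Nitrogen uptake and assimilation had 18 genes, 4 called higher in root and GLN2 higher in leaf (median -0.35). The nitrate transporter NRT2.3 read 65.3, 50.2 and 33.2 in leaf and 1394, 4142 and 1083 in root (38.6-fold), with root array 2 well above the other two, and NRT2.2 read 102, 76.3 and 114 and 775, 1520 and 267 and lost its call without that array (-2.82 with it, -2.24 without, and -3.50 without root array 3). These nitrate transporters are close relatives and their probe sets may share signal. The ammonium transporter AMT1-2 read 134, 152 and 81.8 and 1291, 1479 and 1941 (13.1-fold higher in root). AMT1 lay at -1.97 (adjusted p = 2.77e-04) and AMT2-1 on the leaf side at 1.81, both short of the fold minimum.

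**Figure D4:**
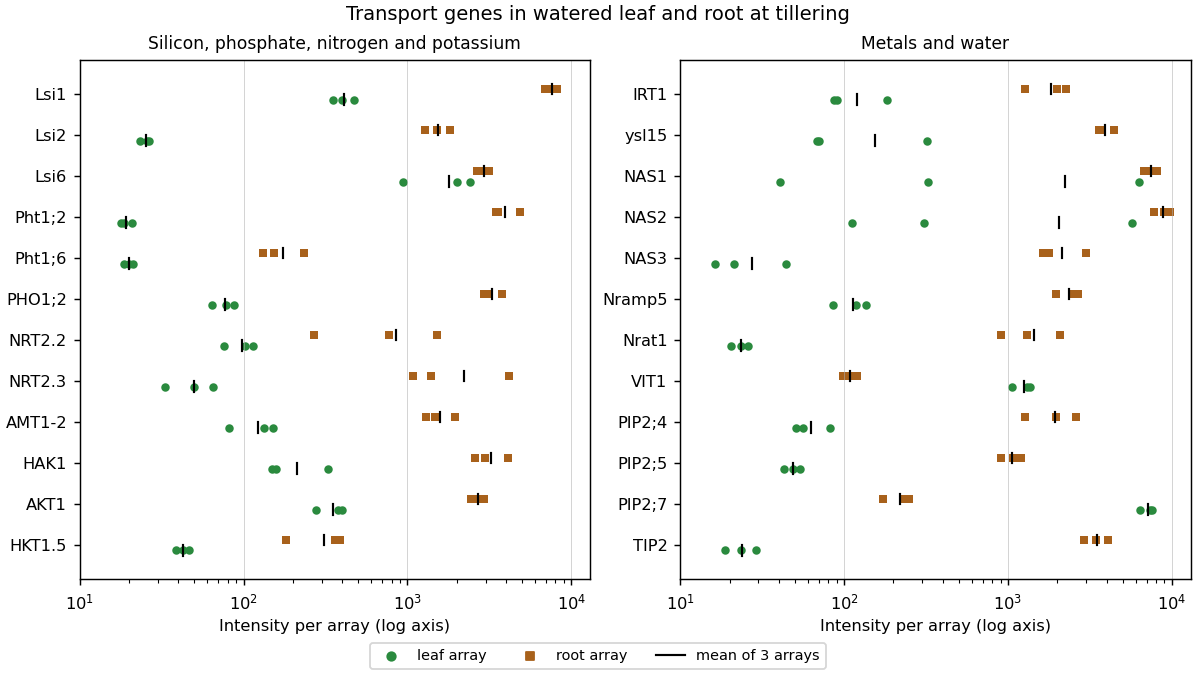
Intensity per array (log axis) of 24 transport genes, with leaf arrays as green circles, root arrays as brown squares and vertical bars for the mean of 3 arrays. VIT1 and PIP2;7 are higher in leaf, Lsi6 was not called, and leaf array 3 stands apart from the other leaf arrays for NAS1, NAS2 and ysl15.

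The list for iron, zinc and other metals was the longest of the transport lists, with 60 genes, 13 called higher in root and 3 higher in leaf (median -0.56). Grasses take up iron as a complex with phytosiderophores made from nicotianamine. Nicotianamine synthase NAS3 read 44.2, 16.3 and 21.4 in leaf and 1780, 1624 and 3004 in root (-6.37 ± 0.50 (log2, SE), 82.6-fold, adjusted p = 7.04e-12), and the iron-phytosiderophore transporter ysl15 read 70.5, 67.8 and 323 and 3640, 3592 and 4408 (33.4-fold, with -5.06 becoming -5.80 without leaf array 3). NAS1 and NAS2 were uneven in leaf. NAS1 read 40.9, 327 and 6310 in leaf and 6774, 8129 and 7412 in root, and NAS2 111, 308 and 5690 and 7827, 9730 and 8957. Leaf array 3 approached the root level for both genes while the other leaf arrays did not, and the differences of -4.08 and -3.92 became -6.00 and -5.57 without that array and -2.37 and -2.73 without leaf array 1. The iron transporter IRT1 was 15.8-fold and Nramp5, which takes up manganese and cadmium, 21.1-fold higher in root.

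Other metals were represented by the aluminium transporter Nrat1, with 23.5, 20.5 and 26 in leaf and 2088, 911 and 1313 in root (58.4-fold), by the copper pump HMA5 (10.1-fold) and by the metallothionein MT4C, a metal-binding protein and 1 of the brightest root probe sets at 13854, 15046 and 14496 against 184, 369.8 and 374 in leaf. Vacuolar iron transporters of the same family took opposite directions. VIT1 read 1309, 1370 and 1057 in leaf and 99, 108 and 119 in root and was 11.4-fold higher in leaf, and VIT2 read 45.3, 34.2 and 37.1 and 1916, 1006 and 778 and was 29.7-fold higher in root. Among the zinc transporters, the gene with the symbol ZIP1 at LOC4342782, also named ZIP8, was 14.8-fold higher in leaf, and ZIP1 at LOC4326394 was 9.38-fold higher in root.

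Of 25 aquaporins, 4 were called higher in root and 2 higher in leaf, with a median of -0.04. TIP2, a channel of the vacuolar membrane also named TIP2;1, read 18.8, 23.6 and 28.9 in leaf and 4091, 3432 and 2895 in root (-7.20 ± 0.19 (log2, SE), 147-fold, adjusted p = 2.88e-22). The plasma membrane channels PIP2;4 and PIP2;5 were 30.4-fold and 21.8-fold higher in root. PIP2;7 of the same subfamily was 33-fold higher in leaf, at 7338, 7597 and 6423 against 248, 174 and 233, so that close relatives stood on opposite sides. Potassium and sodium transport divided likewise over 28 genes, with 3 called higher in leaf and 4 higher in root (median -0.18). HAK1, a high-affinity potassium transporter, read 149, 157 and 329 and 4104, 2601 and 2985 and was 16.1-fold higher in root, as were the potassium channel AKT1 (7.73-fold) and HKT1.5, which retrieves sodium from the xylem (6.92-fold). HAK27, of the HAK1 family, read 548, 805 and 1128 in leaf and 27.3, 22.9 and 30.5 in root and was 29.7-fold higher in leaf.

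Sugar and starch genes numbered 49, with 6 called higher in leaf and 5 higher in root (median 0.17). On the leaf side stood AGPS2, the small subunit of the pyrophosphorylase that commits carbon to starch (29.6-fold), the starch synthase SSII-2 (13-fold) and the sugar transporter SWEET1b, which read 2889, 2964 and 2896 in leaf and 62.8, 63.2 and 58.5 in root (47.5-fold, adjusted p = 3.83e-21). On the root side, the cell wall invertase CIN2, which splits arriving sucrose outside the cell, read 8.66, 7.86 and 9.71 in leaf and 518, 487 and 435 in root (54.9-fold, adjusted p = 7.11e-17), and the sugar transporter SWEET14 was 10.9-fold higher. The arrays of CIN2 were tight in both organs and did not overlap.

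Genes of wall growth lay toward root. Of 29 expansins, proteins that loosen the wall as cells extend, 7 were called higher in root and none higher in leaf (median -0.83). EXP8 read 7.03, 8.45 and 8.26 in leaf and 582, 917 and 626 in root (-6.46 ± 0.34 (log2, SE), 87.9-fold, adjusted p = 9.24e-16), and EXPB7 and EXP3 were 39.8-fold and 23.2-fold higher in root. EXP8 was at the lower end of the scale on every leaf array. Of 30 genes of the cellulose synthase superfamily and xyloglucan enzymes, 4 were called higher in root, none higher in leaf, and 28 lay on the root side (median -0.92). CslC3, of a family that makes the xyloglucan backbone, read 26.2, 22.1 and 32.9 and 657, 606 and 727 (24.7-fold).

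Genes listed under the Casparian strip, the lignin seal of the root endodermis, were divided between the organs. Of 22 genes, 6 were called higher in root and 3 higher in leaf (median -0.46). CASPL1U3 read 55.6, 63.9 and 34.1 in leaf and 2682, 3195 and 2204 in root (53.8-fold higher in root), and CASPL2A1 read 1784, 1755 and 1793 and 72.4, 67.8 and 61.4 (26.5-fold higher in leaf). The 3 members higher in leaf were all of the CASPL2 group and 5 of the 6 higher in root of the CASPL1 group, whose proteins are named for likeness to the strip proteins and not for a known role in the strip. CASP1, which carries the name of the strip protein itself, read 306, 264 and 324 in leaf and 370.5, 497 and 396 in root and was not called (-0.49).

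Phenylpropanoid and lignin genes numbered 26, with 5 called in each direction (median -0.59). The cinnamyl alcohol dehydrogenases, which make lignin precursors, were on opposite sides. CAD3 read 3584, 4126 and 3841 in leaf and 153, 89.3 and 79.6 in root (37.4-fold higher in leaf), whereas CAD8A read 30.1, 29.1 and 53.2 and 2600, 1337 and 2344 (55.9-fold higher in root). Chalcone synthase (CHS), the entry to flavonoids, was 35.9-fold higher in leaf on 1 probe set and 29.8-fold on its brightest. A peroxidase of the wall, PRX74, 1 of only 2 peroxidases with a listed symbol, read 32.5, 20.5 and 15.6 in leaf and 2541, 2906 and 2230 in root and was 117-fold higher in root.

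The auxin list, with 60 genes of transport, synthesis and response, had 11 called higher in root and none higher in leaf (median -0.75). PIN5, an efflux carrier, read 20.4, 16.7 and 22.1 in leaf and 503, 1316 and 854 in root (-5.40 ± 0.47 (log2, SE), 42.2-fold, adjusted p = 5.56e-11). The repressors IAA31, IAA12 and IAA30 were 24.4-fold, 17-fold and 14.3-fold higher in root, as was GH3.2, which conjugates auxin to amino acids (15.3-fold). IAA31 had 81.6, 127 and 62 in leaf and 2026, 2293 and 2015 in root, with no overlap. Of 29 cytokinin genes, 1 was called in each direction (median -0.08). Of the activating enzymes of that hormone, LOG was 9.07-fold higher in leaf (2714, 2721 and 2712 against 250.5, 345 and 311) and LOGL6 6.12-fold higher in root.

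For ethylene, abscisic acid and jasmonate, 7 of 46 genes were called higher in root and JAZ8, a jasmonate repressor, higher in leaf (median -0.38). Abscisic acid was represented by PYL11 alone, which lay at 0.64 and was not called. AOS4, an allene oxide synthase of the jasmonate pathway, read 36.1, 26.7 and 36.1 in leaf and 1137, 1145 and 869 in root (31.9-fold), and the lipoxygenase LOX5 and the oxophytodienoate reductase homologue OPR5 were 9.88-fold and 16.6-fold higher in root. ACS2, which makes the ethylene precursor, was 8.68-fold higher in root. JAZ8 read 954, 1886 and 1602 in leaf and 213, 211 and 456 in root, and its call was lost with quantile normalization (2.28) and without leaf array 2, leaf array 3, root array 1 or root array 2 (2.18 to 2.29). Of 8 gibberellin genes, CPS1, the first enzyme of gibberellin synthesis, was 6.59-fold higher in leaf and no other was called.

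Diterpenoid phytoalexins, antimicrobial compounds that branch from the gibberellin route, had 16 genes, 4 called higher in leaf and 2 higher in root (median 0.28). CYP71Z6, an oxidase of the ent-kaurane branch, read 1045, 1194 and 951 in leaf and 14, 10.9 and 9.32 in root (6.56 ± 0.41 (log2, SE), 94.1-fold, adjusted p = 6.19e-14). CPS2, the cyclase that opens the ent branches, was 16.2-fold and DTC1, the synthase that leads to the phytocassanes, 16.1-fold higher in leaf. The members higher in root were of the momilactone branch, namely CPS4, the cyclase that opens it (13.7, 16.7 and 22.4 in leaf and 70.2, 122 and 152 in root, 6.32-fold), and the momilactone A synthase MAS (9.48-fold). With a floor at the 25th percentile of intensity 1 of these 2 calls remained.

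Of 8 genes listed by symbol under fermentation and low oxygen, 4 were called higher in root and none higher in leaf, with a median of -3.29. The haemoglobins NSHB1 and NSHB2, which scavenge nitric oxide and bind oxygen tightly, read 115, 98.8 and 147 and 66.2, 62.8 and 105 in leaf. In root they read 8305, 7494 and 8803 and 8934, 8343 and 9585. Both were dim in every leaf and among the bright probe sets of every root (69-fold and 118-fold). Alcohol dehydrogenase Adh2 read 76.9, 112 and 159 and 7017, 8238 and 6389 (64.7-fold), and the pyruvate decarboxylase PDC1 (LOC4339066) 34.2, 42.6 and 42 and 758, 3243 and 677 (30.1-fold, with -4.91 becoming -4.18 without root array 2). PDC2 and PDC3 lay at -1.36 and -0.37 and were not called. SK1 (0.75) and SK2 (-1.66), also not called, entered the list by symbol alone. A role of these genes in low oxygen is not given in the sources used here, and the count and median include them.

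Cell cycle and replication genes also lay toward root, with 12 of 57 called higher in root, none higher in leaf, 45 on the root side and a median of -0.83. CYCB1-1, a cyclin of mitosis, read 23.6, 26.1 and 20.9 in leaf and 572, 446 and 368 in root (-4.28 ± 0.21 (log2, SE), 19.4-fold, adjusted p = 2.20e-16). The replication helicase subunits MCM2, MCM4, MCM5 and MCM6 were 12-fold, 11.9-fold, 12-fold and 8.76-fold higher in root, and the mitotic kinase CDC2Os-3 (CDKB2;1) 6.45-fold. None of these read above 49.5 on a leaf array. The 13 tubulin and actin genes held no call, but all 13 lay on the root side with a median of -1.07 against -0.20 for all genes, and 8 were past 2-fold.

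Regulators of organ identity were found on both sides. Of 14 YABBY and TCP factors, 4 were called higher in leaf and none higher in root (median 0.75). YAB2, of a family that marks lateral organs, read 438, 452 and 353 in leaf and 11.4, 14.2 and 12.9 in root (5.01 ± 0.20 (log2, SE), 32.1-fold, adjusted p = 2.54e-18), and YAB1 and YAB5 were 12.6-fold and 11.4-fold higher in leaf. Of 10 genes listed under root development, 4 were higher in root and none higher in leaf. Among these, Lsi1 and Lsi2 are the silicon transporters described above and not regulators. The others were SHR1, which patterns the endodermis (25.5, 18.9 and 18.2 in leaf and 235, 203 and 156 in root, 9.47-fold), and RAA1 (26.2-fold). The stem cell gene WOX9 read 33.5, 34.9 and 34.8 and 46.6, 51.8 and 52 and was not called. Of 31 MADS-box factors, 2 were called higher in root and MADS3 higher in leaf, with a median of -0.07. The members higher in root, MADS27 and MADS25, relatives of a regulator of root branching known from Arabidopsis, were 55-fold and 21.2-fold higher in root. MADS27 read 10.2, 9.43 and 11.2 in leaf and 573, 445 and 701 in root.

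MADS3, a floral organ gene, was the only member called in a list of 11 flower and panicle genes, and rested on part of the leaf arrays. It read 292, 24.8 and 275 in leaf and 11.8, 13.9 and 12.2 in root, so that leaf array 2 was close to the root level and the others were not. Its call was lost under the test named in the study's methods (adjusted p = 0.09465) and with a floor at the 25th percentile of intensity (2.22), and its difference of 3.32 became 4.49 without leaf array 2. The summed level of the 11 genes was 2563 to 4141 in leaf and 2156 to 3330 in root. In the list of clock and flowering genes 1 of 15 was called, DTH7, a pseudo-response regulator that delays flowering in long days, at 2705, 3187 and 2472 in leaf and 219, 193 and 193 in root (13.8-fold higher in leaf).

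Housekeeping lists showed few calls. None of 19 proteasome genes was called (median -0.41), although without the fold minimum limma found 27.7% of all probe sets higher in leaf and 24.4% higher in root, so that small differences were widely measurable. Of 24 genes listed as cytosolic ribosomal proteins, 21 lay within 2-fold and 3 were called higher in leaf, with a median of 0.00. The 3 called were not typical of the list. CL18 (28.2-fold) and CL27 (25.5-fold) are chloroplast ribosomal proteins, and rpl5 (37-fold) read 4500, 4085 and 3506 in leaf and 120.2, 101 and 105 in root, and the compartment of its protein is not given in the sources used here. Outside the housekeeping lists, no gene of the NAC, WRKY or strigolactone lists (8, 6 and 4 genes) was called. Past 2-fold, 4 NAC and 3 WRKY genes lay toward root (medians -0.92 and -0.82) and 1 strigolactone gene toward leaf. Of all 17905 genes, 3788 were past 2-fold toward root and 2646 toward leaf. Of 43 heat shock genes, 2 were called higher in leaf and 1 in root.

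The difference between leaf and root was then set against that of watered plants at panicle elongation, measured on 6 other arrays. There 2656 probe sets were higher in leaf (4.64%) and 2370 higher in root (4.14%). Of those called at tillering, 2233 of 2606 toward leaf (85.7%) and 1830 of 2174 toward root (84.2%) were called again, which is 84.1% and 77.2% of the elongation calls, and none was called in the opposite direction. The correlation of the differences across the 57258 probe sets was 0.932, where probe sets are not independent replicates.

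A test of the difference itself, as an interaction in the same model, called 130 probe sets further toward leaf at tillering than at elongation (0.227%) and 30 further toward root (0.0524%). Over 1 probe set per gene the counts were 73 (0.408%) and 13 (0.0726%). The largest with a symbol was Hd3a, the mobile flowering signal made in leaves. It read 71.7, 37 and 36.7 in leaf and 22.1, 21.2 and 22.6 in root at tillering, a difference of 1.07, and its mean was 937 in leaf and 22.3 in root at elongation, a difference of 5.39. The stages differed by -4.32 ± 0.32 (adjusted p = 2.89e-09). The cytokinin oxidase CKX4 also stood further toward leaf at elongation (4.40 against 1.95).

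DTC1 showed the reverse. It read 987, 963 and 1131 in leaf and 39.3, 59.4 and 111 in root at tillering, and its means were 132 in leaf and 87.9 in root at elongation, a change of difference of 4.21 ± 0.78 (adjusted p = 0.00142). The probe sets of CesA1, a cellulose synthase subunit, disagreed. A dim one read 117, 112 and 116 in leaf and 24.8, 32.5 and 29.4 in root at tillering, with differences of 2.0 at tillering and -0.79 at elongation. The brightest read 2440, 2448 and 2180 and 2589, 2551 and 2767, lay toward root at both stages (-0.16 and -1.21) and was not called for the stage. TBL6, of a family that acetylates wall polymers, lay at -0.47 at tillering and -3.71 at elongation, where its leaf mean was 119 against 1229 at tillering. For SUS1 on a second probe set the differences were -2.03 and -5.0, with leaf means of 553 at tillering and 114 at elongation. The photosystem, silicon and phosphate lists (13, 3 and 19 genes) held no gene called for the difference between stages. At shares of 0.408% and 0.0726% over all genes, lists of this size would seldom hold one.

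**Figure D5:**
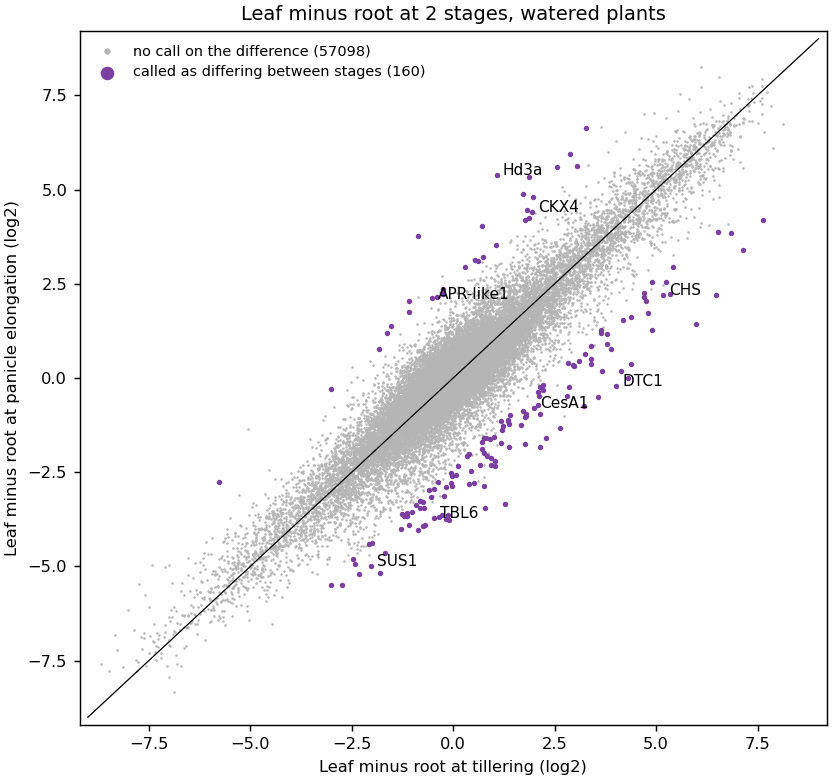
Leaf minus root difference (log2) at panicle elongation (vertical axis) against that at tillering (horizontal axis) in watered plants, for 57258 probe sets, with the 160 probe sets called for the difference between stages in purple and the line of equality. Most probe sets follow the line (correlation 0.932), and Hd3a, CKX4 and APR-like1 lie above it while DTC1, TBL6, the dim CesA1 probe set and the second probe sets of CHS and SUS1 lie below it.

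In droughted plants at tillering, on 6 further arrays, 1515 of the 2606 probe sets higher in leaf (58.1%) and 692 of the 2174 higher in root (31.8%) still differed by 5-fold or more in the same direction. The median difference of the first set was 3.75 in watered and 2.69 in droughted plants, and that of the second -3.34 and -1.61. These probe sets were chosen on the watered arrays at tillering. In watered plants at panicle elongation, to which the same holds, the medians were 3.72 and -3.33.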

How the data were processed

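Total RNA was hybridised to Affymetrix rice genome arrays. The authors extracted CEL files with GCOS and normalized them by the invariant-set method of dChip, whose version and expression model are not given in the sources used here. The deposited unit is intensity, linear and 1 value for each probe set on each array. Here 123 control probe sets were left out, values under 1 (134 on the 6 arrays) were set to 1 and log2 was taken. All 36 arrays were fitted in limma 3.58.1 (R 4.3.3) with a mean for each of 12 groups and no replicate term, which left 24 residual and 3.76 prior degrees of freedom. Calls required a Benjamini-Hochberg adjusted p under 0.05 over 57258 probe sets and 5-fold, the minimum of the study. Correlations and levels are descriptions and have no p.

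Probe sets were named through platform Entrez identifiers and a RefSeq table. In all, 22436 matched 1 gene, 95 several and 34727 none. Locus names and descriptions came from the study's tables. Lists use the probe set of each gene with the highest mean over all arrays. The members and lists were chosen with earlier results of these data known. Genes named are the 12 largest non-overlapping differences each way, the furthest called member of each list each way, the 5 largest stage differences each way (3 toward root had a symbol) and every isoform gene. Others were chosen after their values were seen.

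Same-numbered leaf and root arrays at tillering deviated together (correlations of 0.18, 0.20 and 0.16, against -0.14 to -0.04 for other pairs), so the numbers were taken as paired in an alternative. This comes from the data alone, and at elongation the correlations were 0.05, -0.13 and -0.12. Alternatives were the methods' t-test, a 2-fold minimum, only the arrays compared, removal of dim probe sets, a higher floor (the 25th percentile of intensity), an intensity trend, the control arrays alone, a ratio of linear means, unadjusted p-values, quantile normalization, median centring, the replicate block, each array left out, 1 probe set per gene and no probe sets that may bind several transcripts, which among the named genes removes those for CHLH, GDCSH, FBPase, CPDK2, TIP2, NRT2.3 and others. The fit was tested on simulated data. RT-PCR, promoter motifs and gene sequences were not analysed here.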

Additional observations from a re-analysis of the deposited data

Results flagged for a closer look

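The difference between leaf and root at tillering differed from that at panicle elongation, by the limma test of that difference itself over all probe sets, for 12 genes that have a symbol and are named in the report or stand in its gene lists.

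At tillering 9 of them stood further toward leaf. They were the phytocassane synthase DTC1 (4.21 ± 0.78 SE, adjusted p = 0.00142, differences of 4.01 at tillering and -0.20 at elongation), the wall acetylation gene TBL6 (3.24 ± 0.59, adjusted p = 0.00117), the second probe set of chalcone synthase CHS (2.96 ± 0.40, adjusted p = 3.34e-05, 5.17 and 2.2) and the second probe set of sucrose synthase SUS1 (2.96 ± 0.54, adjusted p = 0.00113). For the cellulose synthase CesA1 (2.80 ± 0.35, adjusted p = 1.52e-05) this was a dim probe set, with differences of 2.0 and -0.79. The brightest probe sets of these 3 genes with several were not called for the stage, with stage differences of 1.17 for CHS, 2.07 for SUS1 and 1.05 for CesA1, and CesA1 lay toward root at both stages there (-0.16 and -1.21). The laccases LAC7 (2.61 ± 0.75, adjusted p = 0.0430) and LAC4 (2.58 ± 0.62, adjusted p = 0.0150), enzymes that polymerise lignin, stood at 3.24 and 1.71 at tillering. The tillering leaf arrays of LAC7 read 3111, 3133 and 1657 and the root arrays 270.1, 319.9 and 223. LAC4 lay at -0.87 at elongation, and its leaf arrays at tillering were uneven (851, 1272 and 288, against 208, 214 and 201 in root). The stress factors DREB1A (2.54 ± 0.62, adjusted p = 0.0159) and MYB2 (2.37 ± 0.61, adjusted p = 0.0244) lay toward root at both stages, with differences of -1.13 and -0.38 at tillering and -3.67 and -2.75 at elongation.

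The other 3 stood further toward leaf at elongation. They were the cytokinin oxidase CKX4 (-2.45 ± 0.41, adjusted p = 4.85e-04), the sulphate assimilation relative APR-like1 (-2.64 ± 0.45, adjusted p = 5.70e-04, differences of -0.53 and 2.1) and the flowering signal Hd3a (-4.32 ± 0.32, adjusted p = 2.89e-09, 1.07 and 5.39). For Hd3a the elongation leaf mean was 937, and the root means of the stages were 22 and 22.3.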

How the results depend on the processing

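No alternative reversed a called tillering difference among the genes chosen by the naming rule. For single genes only that difference was followed, so whether each stage call holds under the alternatives is not shown. Where the counts of probe sets over the whole table moved by more than 1.5 times, the values were as follows. With a 2-fold minimum in place of 5-fold, 6711 were higher in leaf, 6449 higher in root, and 930 and 479 differed between stages toward leaf and toward root at tillering. With the t-test of the methods, adjusted, the stage differences were 47 and 5, in a fit of only the arrays compared the second was 15, and without probe sets that may bind several transcripts the first was 86. With 1 probe set per gene, which leaves fewer features, the counts were 1370, 1362, 75 and 15. Leaving out each array in turn gave 2580 to 2677 higher in leaf, 2147 to 2209 higher in root, and stage differences of 104 to 171 and 28 to 67, of which the 67 came without replicate 2 of the elongation leaves and 48 without replicate 2 of the elongation roots. Replicate 2 of the watered elongation leaves had a mean correlation of 0.944 with its replicates, against 0.969 and 0.968 for replicates 1 and 3. The cause of either count was not tested. With the replicate number as a block, for the pairing at tillering, the counts were 2605, 2175, 133 and 30, and no call of such a gene changed. Under the 2-fold minimum 9 more of these genes passed at tillering. Elsewhere, the tillering calls among them that changed were those of MADS3, JAZ8, SUS1 and FNR at LOC4334338. Of other genes in the text, NRT2.2 lost its call without root array 2, and 1 of the calls of CPS4 and MAS was lost with the higher floor. In all, 19 of 252 called list members and named probe sets lost their call when some array was left out. The share of calls that were higher in leaf was 54.5%, 52.4% with quantile normalization and 53.02% with median centring. Precision is limited by 3 arrays a tissue, and exact permutation of 3 against 3 arrays cannot give a p under 0.1. Of 200 simulated differences, 91.5% of those of 6-fold and 0.5% of those of 3-fold were called. The second share follows from the 5-fold minimum, which a difference of 3-fold does not reach, and does not measure precision.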

Other observations

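Beta-glucosidases, which release hormones and defence compounds from their sugars, were spread over both organs. Of 27 genes, 4 were called higher in leaf and 6 higher in root (median -0.16). BGLU5 read 1103, 959 and 914 in leaf and 44.5, 39.5 and 38 in root (24.4-fold higher in leaf, adjusted p = 7.31e-19), and BGLU34 read 32.5, 45.5 and 41.3 and 897, 941 and 951 (23.6-fold higher in root, adjusted p = 2.21e-10). Of 40 homeobox factors, which pattern plant organs, 4 were called higher in leaf and 5 higher in root (median -0.29). Hox8 read 15.8, 7.8 and 11.8 in leaf and 246, 230.2 and 174 in root (18.9-fold higher in root, adjusted p = 2.44e-15), and Hox22 was 9.86-fold higher in leaf. In the bHLH and MYB list, with 1 of 21 higher in leaf and 3 higher in root, MYBS1, a regulator of sugar-repressed amylase genes, was 11.6-fold higher in leaf, and bHLH003 27.5-fold higher in root. Of 15 chitinases and pathogenesis-related genes, chia4a was higher in leaf and 3 were higher in root. chia4a was uneven in leaf, at 200.4, 91.3 and 456 against 24.7, 17.5 and 22.2 in root. Of 12 ERF and DREB genes, AP25 was called higher in root (12-fold). The study's tables describe that probe set as a pepsin family peptidase. The heat shock factor HSF07 was 7.15-fold higher in leaf and the small heat shock protein Hsp23.2 19.9-fold higher in root.

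Single arrays stood apart for some genes. The 3 leaf arrays spanned 10-fold or more for 155 probe sets, of which 48 were called, with leaf array 3 the highest for 26 of the 48, array 1 for 12 and array 2 for 10. In root 93 probe sets did so, of which 24 were called. Besides NAS1 and NAS2, a major facilitator protein (Os11g0151500) read 7.4, 8.4 and 234 in leaf and 1552, 1272 and 1640 in root, and its difference of -5.92 became -7.55 without leaf array 3. A dicarboxylate transporter (Os01g0556700) went the other way on the same array, with 1720, 2402 and 83.3 in leaf and 36.1, 12.1 and 24.4 in root (5.0, and 6.53 without it). In root, a probe set annotated as an eggshell protein family member (Os10g0452300) read 91.2, 2004 and 1682 (-6.68, and -8.13 without root array 1). What sets these arrays apart was not tested.

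Probe sets of 1 gene did not always reach the same call. Of 3444 genes with 2 or more probe sets, 360 had some probe set higher in leaf and 131 had all, and for root the numbers were 255 and 63. In 1 gene, which has no symbol here, probe sets were called in opposite directions, 1 of them at 629, 633 and 663 in leaf and 53.1, 29.4 and 37.8 in root and another at 174, 103 and 83.3 in leaf and 695, 864 and 817 in root.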
